A study of Homo sapiens with 15 samples.

Results

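The genes described are 9 AP-1, EGR and related genes: the 4 FOS-family members FOS, FOSB, FOSL1 and FOSL2, the 3 JUN-family members JUN, JUNB and JUND, the zinc-finger factor EGR1 and the stress-response gene IER3. They were taken by symbol from a table of 28518 gene symbols, and 9 of 9 were among the 14971 genes abundant enough to be tested. The RNA came from HaCaT, an immortal line of human keratinocytes, after CRISPR editing of CARD14. CARD14 is a scaffold that brings together BCL10 and the protease MALT1 and so activates NF-kB in skin. The groups were CARD14 KO cells given vehicle, CARD14 R820W/R820W cells (R820W) given 10 µM mepazine or vehicle, and CARD14 WT/WT cells (WT) given mepazine or vehicle, each with 3 libraries lettered a, b and c. Mepazine is a phenothiazine inhibitor of MALT1, the vehicle was DMSO, exposure lasted 24 h, and KO cells received vehicle. Whether 1 or several edited clones represent each genotype is not stated in the labels, so effects of genotype and clone cannot be told apart.

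FOS and JUN proteins are basic leucine zipper factors that pair to form AP-1, and the make-up of the pair sets which genes it acts on and how strongly. JUN proteins pair with one another or with a FOS protein, while FOS proteins need a JUN partner to bind DNA. FOS, FOSB and EGR1 are known for fast, brief induction by serum and growth factors through ERK signalling and serum response factor, whereas FOSL1 (FRA-1), FOSL2 (FRA-2) and JUND can be held at a steady level. In epidermis, AP-1 factors act on genes of proliferation, migration and terminal differentiation.

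The bases before the transcription start are shown for 4 of these genes, a pair that was lower with mepazine and a pair that was higher in the comparisons below. RefSeq promoters (GRCh38.p14) matched 7 of the 9 genes, and FOSL1 and IER3 had no entry. EGR1 (chr5:138465229-138465478, plus strand) and JUN (chr1:58784048-58784297, minus strand) were lower with mepazine, and FOSL2 (chr2:28392608-28392857, plus strand) and JUND (chr19:18281623-18281872, minus strand) were higher. Each line gives the 250 bases before the start, 5′ to 3′ on the gene's strand, with motif matches in capitals.
EGR1: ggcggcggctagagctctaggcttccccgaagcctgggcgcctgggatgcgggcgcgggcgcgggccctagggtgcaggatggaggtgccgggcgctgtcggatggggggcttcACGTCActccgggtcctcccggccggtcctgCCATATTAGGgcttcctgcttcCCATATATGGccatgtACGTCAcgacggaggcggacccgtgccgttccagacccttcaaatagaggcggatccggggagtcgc
JUN: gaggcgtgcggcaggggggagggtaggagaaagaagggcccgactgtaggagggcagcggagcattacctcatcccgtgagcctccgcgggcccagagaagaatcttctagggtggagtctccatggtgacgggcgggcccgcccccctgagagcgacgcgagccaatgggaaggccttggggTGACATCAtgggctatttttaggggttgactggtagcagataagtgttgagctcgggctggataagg
FOSL2: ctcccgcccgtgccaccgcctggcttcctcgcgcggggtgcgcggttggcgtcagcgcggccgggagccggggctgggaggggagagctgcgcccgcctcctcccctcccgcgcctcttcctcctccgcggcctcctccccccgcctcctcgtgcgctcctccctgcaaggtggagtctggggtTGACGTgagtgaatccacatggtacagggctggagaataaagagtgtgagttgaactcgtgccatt
JUND: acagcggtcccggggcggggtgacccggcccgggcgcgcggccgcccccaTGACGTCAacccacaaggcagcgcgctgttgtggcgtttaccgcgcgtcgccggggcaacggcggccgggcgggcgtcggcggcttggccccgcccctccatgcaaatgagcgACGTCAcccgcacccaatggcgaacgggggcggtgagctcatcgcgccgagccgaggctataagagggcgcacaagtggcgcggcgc

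In the EGR1 promoter the capitals mark 2 CArG boxes, the element bound by serum response factor, at -105 to -96 and -83 to -74 from the start, and the core of the cAMP response element (CRE) on the other strand at -136 to -131 and -67 to -62. In JUN they mark TGACATCA, the variant AP-1 element known from this promoter, at -67 to -60. In FOSL2 they mark a TGACGT core at -66 to -61, and in JUND a full CRE, TGACGTCA, at -200 to -193 (which contains the core on both strands) and a further core on the other strand at -87 to -82. On either strand, a CArG box was held by 1.16% of 35116 RefSeq promoters over the same 250 bases, TGACATCA by 2.37%, TGACGT by 7.1%, TGACGTCA by 1.65% and the canonical AP-1 element TGACTCA by 4.2%. These are matches of letters in one window, not measured binding, and no test relates them to expression.

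Library totals ran from 20630099 to 26974363 counts over the 15 libraries. Levels are given as CPM, counts scaled to a common library size after TMM adjustment, except that the marker levels in this paragraph are CPM before that adjustment. Before it, 3 counts stood for 0.111 to 0.145 CPM. CARD14 itself had 24 to 46 counts per library and does not check the edit, since the labels do not place it within the gene. The 12 keratinocyte markers were all at 1 CPM or more in each group, with summed levels of 6839 to 7743 CPM in KO with vehicle, 5927 to 6351 in R820W with mepazine, 5718 to 6030 in R820W with vehicle, 6343 to 6935 in WT with mepazine and 7231 to 7516 in WT with vehicle. The 8 fibroblast markers summed to 2.36 to 2.86 CPM in KO with vehicle, 24.3 to 34.3 in R820W with mepazine, 5.35 to 11.2 in R820W with vehicle, 3.53 to 5.2 in WT with mepazine and 2.42 to 2.63 in WT with vehicle. The fibroblast collagens COL1A2 and COL3A1 were at or near 0 in all libraries, at most 0.112 and 0.0921 CPM. The collagen COL1A1 went the other way, at 4.85 to 7.69 CPM in R820W with mepazine and 1.4 to 1.85 CPM in WT with vehicle. In R820W cells with mepazine DCN reached 8.68 to 14.4 CPM and LUM 10.8 to 13.4 CPM. The 5 endothelial markers summed to 4.63 to 5.31 CPM in KO with vehicle, 23.2 to 37.1 CPM in R820W with mepazine, 7.73 to 10.5 in R820W with vehicle, 10.2 to 13.4 in WT with mepazine and 4.28 to 6.81 in WT with vehicle. The part of these markers in the results below was not tested.

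**Figure D1:**
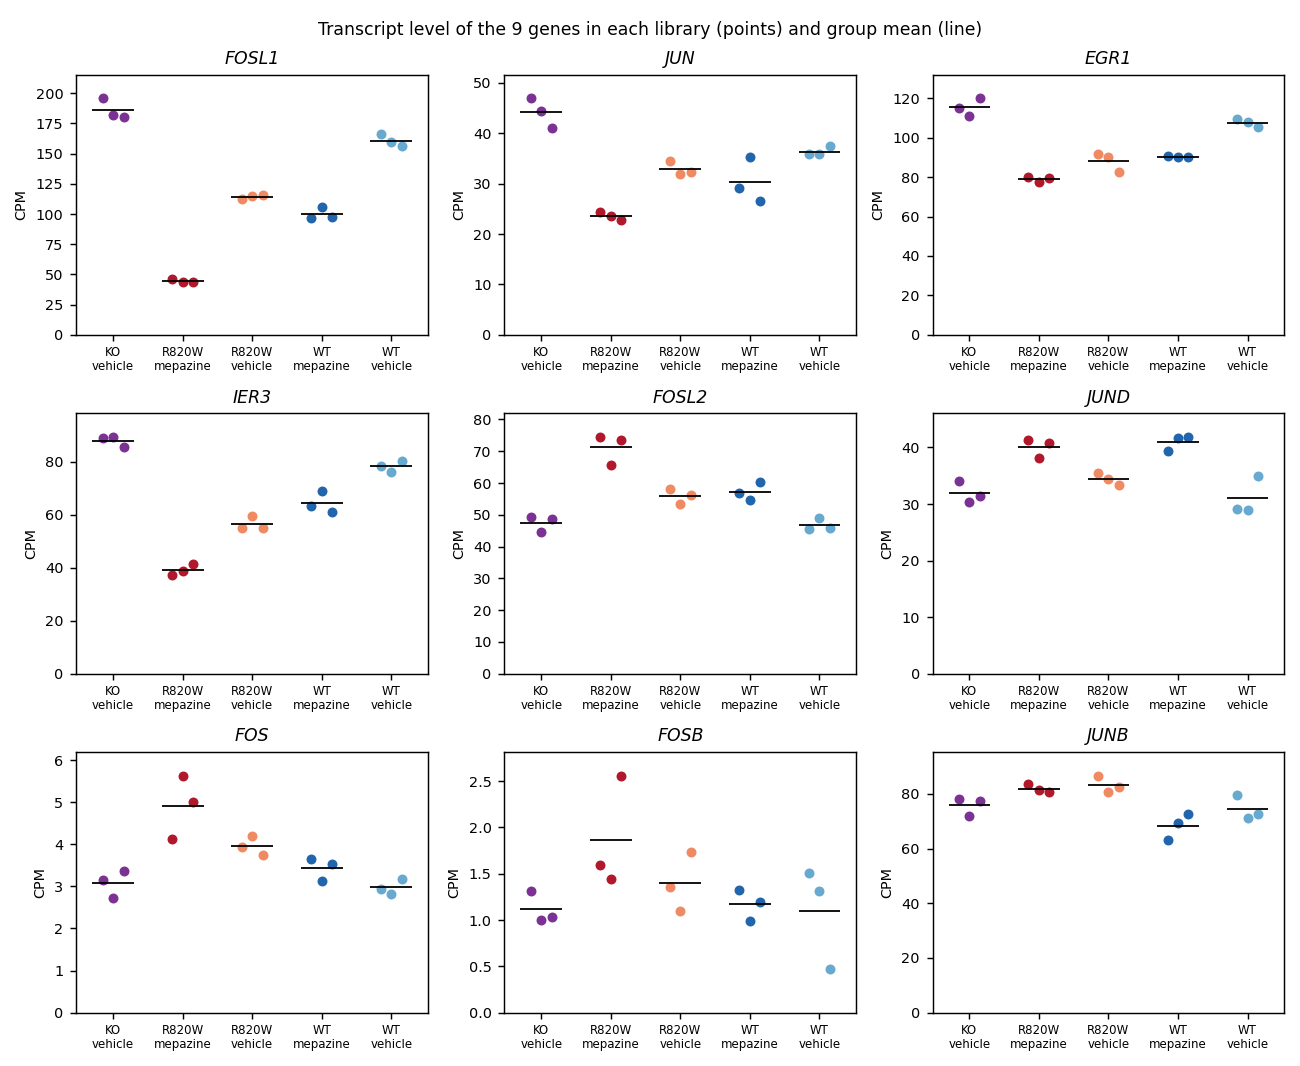
Transcript level in CPM (y axis, linear from 0) of the 9 genes in each library (points) of 5 groups (x axis), with the group mean as a line, n = 3 libraries per group. FOSL1 is lowest in R820W cells with mepazine (43.4 to 46.3 CPM) and highest in KO cells with vehicle (180.3 to 196 CPM), whereas FOSL2 is highest in R820W cells with mepazine (65.8 to 74.5 CPM).

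FOSL1 was the FOS-family gene with the widest span between groups. It encodes FRA-1, an AP-1 subunit without the transactivation domain of FOS that is known for cell migration and invasion. FOSL1 stood at 196, 182 and 180.3 CPM in KO libraries a, b and c, at 46.3, 43.8 and 43.4 CPM in R820W with mepazine, at 113, 115 and 115 CPM in R820W with vehicle, at 97.1, 106 and 97.3 CPM in WT with mepazine and at 166, 159.7 and 156 CPM in WT with vehicle. No group overlapped another. How many of all genes tested lie apart in this way was not counted, so overlap is given here and below as a description. The group means were 186 ± 8.57 CPM in KO, 44.5 ± 1.55 in R820W with mepazine, 114 ± 1.43 in R820W with vehicle, 99.98 ± 4.81 in WT with mepazine and 160.6 ± 4.99 in WT with vehicle (SD, n = 3 libraries each). From high to low the order was KO, then WT with vehicle, R820W with vehicle, WT with mepazine and last R820W with mepazine. Each neighbouring pair of groups in that order passed the edgeR test, with Benjamini-Hochberg adjusted p = 0.0168, 1.91e-09, 0.00235 and 1.50e-16 from the highest pair to the lowest.

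In R820W cells against WT cells, both with vehicle, 3 of the 9 genes rose (FOS, FOSL2 and JUNB) and 3 fell (FOSL1, EGR1 and IER3), at an adjusted p under 0.05. In this comparison 19.2% of all genes tested were called. FOSL1 fell by 0.49 ± 0.0442 on the log2 scale (SE, adjusted p = 1.91e-09), a level 0.711 times that of WT. IER3, a short-lived protein that modulates apoptosis and NF-kB and ERK signalling, stood at 54.96, 59.6 and 54.96 CPM in R820W libraries and at 78.4, 75.97 and 80.3 CPM in WT libraries. All R820W values lay below all WT values, and IER3 fell by 0.47 ± 0.0512 (adjusted p = 7.2e-08). EGR1, which binds GC-rich promoter elements, stood at 91.5, 89.9 and 82.8 CPM in R820W and at 109.6, 108 and 106 CPM in WT, without overlap (fell by 0.29 ± 0.0433, adjusted p = 1.28e-05).

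FOSL2, the FRA-2 subunit, went the other way in R820W cells. It stood at 58.0, 53.5 and 56.2 CPM in R820W with vehicle and at 45.6, 49.1 and 45.9 CPM in WT with vehicle, and rose by 0.26 ± 0.0572 (adjusted p = 0.00167). FOS, the founding member of the family, was low, at 3.95, 4.19 and 3.74 CPM in R820W and 2.94, 2.82 and 3.19 CPM in WT. Its rise of 0.41 ± 0.143 (adjusted p = 0.0456) passed the threshold with all 15 libraries and missed it without any 1 of the 6 libraries compared. Without WT_vehicle a it was 0.40 (adjusted p = 0.124), without R820W_vehicle a 0.41 (0.103), without WT_vehicle b 0.37 (0.136), without R820W_vehicle b 0.37 (0.136), without WT_vehicle c 0.45 (0.0596) and without R820W_vehicle c 0.45 (0.0687). It also missed the threshold with DESeq2 (adjusted p = 0.132), with DESeq2's size factors (0.0505) and without the filter on low counts (0.0706).

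JUNB, a JUN protein that is a weaker activator than JUN, stood at 86.6, 80.8 and 82.6 CPM in R820W with vehicle and at 79.7, 71.1 and 72.7 CPM in WT with vehicle. It rose by 0.16 ± 0.0521 (adjusted p = 0.0295). The JUNB call was lost with DESeq2 (adjusted p = 0.0501), without R820W_vehicle a (0.13, adjusted p = 0.15), without WT_vehicle b (0.13, 0.149), without WT_vehicle c (0.14, 0.112) and without R820W_vehicle c (0.17, 0.0655). JUN was 32.9 ± 1.4 CPM in R820W and 36.4 ± 0.909 CPM in WT (log2 fold change -0.14, adjusted p = 0.19). JUND was 34.4 ± 1.13 CPM in R820W and 31.0 ± 3.36 CPM in WT (0.15, adjusted p = 0.103). Without WT_vehicle c the difference in JUND was 0.25 and passed (adjusted p = 0.00841). Over the 9 fits with a library or letter left out it lay between 0.09 and 0.27 (adjusted p = 0.00841 to 0.602), and 2 passed. FOSB, at 1.4 ± 0.321 CPM in R820W and 1.1 ± 0.55 CPM in WT, was near the lower limit of what these libraries measure, with 10 counts in the WT library c.

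**Figure D2:**
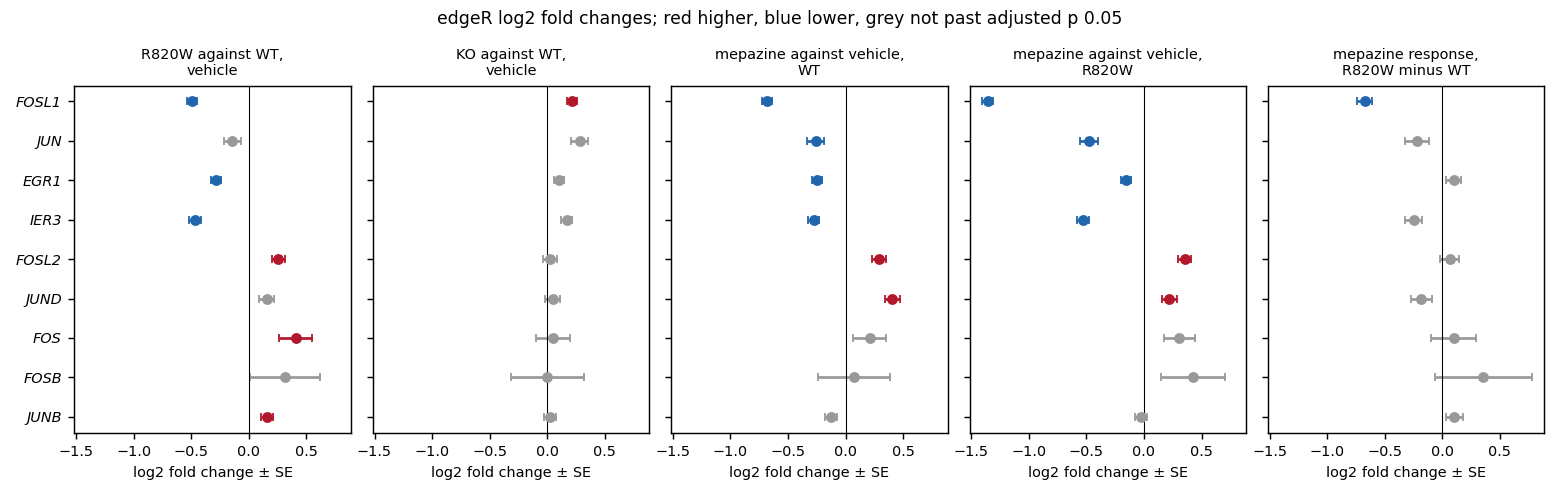
Log2 fold changes from edgeR (x axis) with their SE as bars for the 9 genes (y axis) in 4 comparisons and in the difference between the 2 mepazine responses. Red marks genes called higher, blue genes called lower and grey genes not past an adjusted p of 0.05, with 3 libraries per group. FOSL1 lies at -0.49 for R820W against WT, 0.21 for KO against WT, -0.68 for mepazine in WT and -1.36 for mepazine in R820W cells.

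KO cells against WT cells, both with vehicle, showed small differences in these genes. FOSL1 was called higher, and the other 8 were not called, in a comparison where 0.374% of all genes tested were called. FOSL1 rose by 0.21 ± 0.0433 (adjusted p = 0.0168), and the call was lost without KO_vehicle a (0.17, adjusted p = 0.225), without WT_vehicle b (0.21, 0.104) and without WT_vehicle c (0.19, 0.173). It was also lost without the libraries of letter a (adjusted p = 0.418), of letter b (0.0843) or of letter c (0.162). JUN, the classical partner of FOS, stood at 46.97, 44.4 and 41.1 CPM in KO and at 35.8, 35.8 and 37.4 CPM in WT. The JUN libraries did not overlap, but JUN was not called, as its log2 fold change of 0.28 ± 0.0718 missed the threshold (adjusted p = 0.121). It passed without the filter on low counts (adjusted p = 0.00721) and in a fit of these groups alone (0.0214). Over the 9 fits with a library or letter left out JUN lay between 0.22 and 0.35 (adjusted p = 0.0454 to 0.722), and 1 passed. IER3 was 88.0 ± 2.16 CPM in KO and 78.2 ± 2.16 CPM in WT (0.17 ± 0.0498, adjusted p = 0.223), and EGR1 115 ± 4.61 CPM in KO and 107.6 ± 2.04 CPM in WT (0.1 ± 0.0427, adjusted p = 0.578). FOSL2 was 47.5 ± 2.59 CPM in KO and 46.9 ± 1.91 CPM in WT (adjusted p = 0.962).

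Set against R820W cells, both with vehicle, KO cells were higher in FOSL1, JUN, EGR1 and IER3 and lower in FOSL2, which is 5 of the 9 genes called where 26.5% of all genes tested were called. The log2 fold changes of KO over R820W were 0.705 ± 0.0439 for FOSL1 (adjusted p = 1.12e-12), 0.64 ± 0.0508 for IER3 (1.48e-10), 0.39 ± 0.0431 for EGR1 (7.83e-08), 0.43 ± 0.072 for JUN (6.94e-05) and -0.23 ± 0.0568 for FOSL2 (0.00298). JUN was called here and in neither comparison with WT. The comparisons of R820W with WT, of KO with WT and of mepazine with vehicle in WT share the same 3 WT vehicle libraries, so their values are given side by side and not as independent results.

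In WT cells, mepazine lowered FOSL1, JUN, EGR1 and IER3 and raised FOSL2 and JUND, so that 6 of the 9 genes were called where 24.0% of all genes tested were called. FOSL1 fell by 0.68 ± 0.0445 (adjusted p = 6.79e-12). IER3 stood at 63.2, 69.1 and 61.2 CPM with mepazine and at 78.4, 75.97 and 80.3 CPM with vehicle, and fell by 0.28 ± 0.0508 (adjusted p = 0.000192). EGR1 stood at 90.8, 90.3 and 90.1 CPM with mepazine, the narrowest spread of any group for this gene, and at 109.6, 108 and 106 CPM with vehicle (fell by 0.25 ± 0.0433, adjusted p = 9.69e-05). JUN stood at 29.2, 35.3 and 26.5 CPM with mepazine and at 35.8, 35.8 and 37.4 CPM with vehicle. The library b with mepazine lay just under the vehicle libraries, and JUN fell by 0.26 ± 0.0742 (adjusted p = 0.012), a call lost without WT_mepazine a (-0.24, adjusted p = 0.0524) or WT_mepazine c (-0.18, 0.0999).

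JUND, a JUN protein known for constant expression and for restraining growth, stood at 39.4, 41.7 and 41.8 CPM in WT cells with mepazine and at 29.2, 28.95 and 34.9 CPM in WT cells with vehicle. The groups did not overlap, and JUND rose by 0.4 ± 0.0643 (adjusted p = 3.56e-05). FOSL2 stood at 56.9, 54.6 and 60.5 CPM with mepazine and at 45.6, 49.1 and 45.9 CPM with vehicle, and rose by 0.29 ± 0.0571 (adjusted p = 0.000444). JUNB was 68.4 ± 4.67 CPM with mepazine and 74.5 ± 4.57 CPM with vehicle (-0.13 ± 0.0528, adjusted p = 0.0808), and passed as lower without WT_mepazine c (JUNB -0.17, adjusted p = 0.0403). Over the 9 fits with a library or letter left out JUNB lay between -0.19 and -0.02 (adjusted p = 0.0403 to 0.885), and 1 passed. FOS was 3.44 ± 0.272 CPM with mepazine and 2.985 ± 0.185 CPM with vehicle (adjusted p = 0.33).

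In R820W cells with mepazine, FOSL2 and JUND were higher and FOSL1, JUN, EGR1 and IER3 lower than with vehicle, which is 6 of 9 genes where 46.8% of all genes tested were called. FOSL1 stood at 44.5 ± 1.55 CPM with mepazine and 114 ± 1.43 CPM with vehicle, a fall of 1.36 ± 0.0478 on the log2 scale (adjusted p = 3.58e-17), to 0.39 times the vehicle level. IER3 stood at 37.4, 38.8 and 41.3 CPM with mepazine and at 54.96, 59.6 and 54.96 CPM with vehicle, and fell by 0.53 ± 0.0536 (adjusted p = 1.01e-08). JUN stood at 24.4, 23.6 and 22.8 CPM with mepazine and at 34.5, 31.9 and 32.2 CPM with vehicle, and fell by 0.48 ± 0.076 (adjusted p = 1.33e-05). EGR1 stood at 80.1, 77.7 and 79.6 CPM with mepazine and at 91.5, 89.9 and 82.8 CPM with vehicle (fell by 0.15 ± 0.0438, adjusted p = 0.00502). The EGR1 call was lost without the libraries of letter a (-0.14, adjusted p = 0.0825) or of letter b (-0.13, 0.0549). All mepazine values of these 4 genes lay under all vehicle values.

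FOSL2 stood at 74.5, 65.8 and 73.5 CPM in R820W cells with mepazine and at 58.0, 53.5 and 56.2 CPM with vehicle, and rose by 0.35 ± 0.055 (adjusted p = 8.13e-06). JUND stood at 41.3, 38.2 and 40.8 CPM with mepazine and at 35.6, 34.5 and 33.3 CPM with vehicle, and rose by 0.22 ± 0.063 (adjusted p = 0.0053). FOS was 4.92 ± 0.758 CPM with mepazine and 3.96 ± 0.227 CPM with vehicle (0.31 ± 0.133, adjusted p = 0.0615), and without R820W_mepazine a FOS passed as higher (0.41, adjusted p = 0.0201). Over the 9 fits with a library or letter left out FOS lay between 0.20 and 0.42 (adjusted p = 0.0201 to 0.303), and 1 passed. JUNB was 81.9 ± 1.39 CPM with mepazine and 83.3 ± 2.93 CPM with vehicle (-0.03 ± 0.0514, adjusted p = 0.716). FOSB was 1.86 ± 0.605 CPM with mepazine and 1.4 ± 0.321 CPM with vehicle (adjusted p = 0.221).

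The difference between the 2 mepazine responses was tested as an interaction, R820W minus WT, in which 3.85% of all genes tested were called. FOSL1 was the member called: its fall with mepazine was larger in R820W cells than in WT cells by 0.67 ± 0.0652 on the log2 scale (log2 difference -0.67, adjusted p = 1.46e-06). With each library or letter left out in turn the FOSL1 difference lay between -0.76 and -0.62, and it passed in each of these 15 fits. IER3 had a difference of -0.25 ± 0.0738 (adjusted p = 0.0539), which passed without R820W_mepazine b (IER3 -0.25, adjusted p = 0.0439), WT_mepazine c (-0.29, 0.0335) or R820W_mepazine c (-0.29, 0.0495), and with DESeq2 (0.0488). Over the 15 fits with a library or letter left out the IER3 difference lay between -0.36 and -0.13 (adjusted p = 0.0335 to 0.413), and 3 passed. The differences of the other 7 genes did not pass, with JUN at -0.22 ± 0.106 (adjusted p = 0.257), JUND at -0.18 ± 0.09 (0.259), EGR1 at 0.1 ± 0.0616 (0.397) and FOSL2 at 0.06 ± 0.0793 (0.726).

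With both genotypes on mepazine, R820W cells were higher than WT cells in FOS, FOSL2 and JUNB and lower in FOSL1, JUN, EGR1 and IER3. These 7 of 9 calls stand beside 44.9% of all genes tested. FOSL1 fell by 1.17 ± 0.048 (adjusted p = 1.50e-16) and IER3 by 0.72 ± 0.0531 (adjusted p = 2.63e-11). FOS stood at 4.12, 5.63 and 5.0 CPM in R820W with mepazine and at 3.65, 3.14 and 3.54 CPM in WT with mepazine, without overlap, and rose by 0.505 ± 0.136 (adjusted p = 0.00336). JUNB stood at 83.5, 81.4 and 80.8 CPM in R820W with mepazine and at 63.3, 69.3 and 72.5 CPM in WT with mepazine (0.26 ± 0.0522, adjusted p = 0.000173). FOSB had 1.59, 1.44 and 2.56 CPM in R820W with mepazine and 1.33, 0.988 and 1.196 CPM in WT with mepazine (0.67 ± 0.288, adjusted p = 0.0597), and passed as higher without R820W_mepazine b (FOSB 0.81, adjusted p = 0.0334). Over the 9 fits with a library or letter left out FOSB lay between 0.37 and 0.89 (adjusted p = 0.0334 to 0.364), and 1 passed.

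The order of group levels differed between the genes. IER3 ran from high to low as KO, then WT with vehicle, then WT with mepazine, then R820W with vehicle, then R820W with mepazine, and each neighbouring pair passed the test except KO and WT with vehicle, whose libraries did not overlap (adjusted p = 0.223). EGR1 had the same order of groups. KO and WT with vehicle did not overlap in EGR1 but missed the threshold (adjusted p = 0.578), and WT with mepazine and R820W with vehicle overlapped (adjusted p = 0.621). JUN followed the order of FOSL1, and of its neighbours the lowest pair, R820W with mepazine and WT with mepazine, passed the test (adjusted p = 0.00039). FOSL2 was highest in R820W with mepazine, then WT with mepazine and R820W with vehicle, which overlapped (adjusted p = 0.733), then KO and WT with vehicle, which overlapped too (adjusted p = 0.962). JUND had its mepazine groups on top, at 40.1 ± 1.64 CPM in R820W and 41.0 ± 1.35 CPM in WT (overlapping, adjusted p = 0.728), above the vehicle groups. For FOS, FOSB and JUNB no neighbouring pair passed the test.

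Levels can be compared between genes once divided by exon length, here as CPM per kilobase (kb) of GENCODE v29 exons. In WT cells with vehicle FOSL1 stood at 87.3 ± 2.73 CPM per kb, JUNB at 40.9 ± 2.51, IER3 at 57.7 ± 1.59, EGR1 at 34.3 ± 0.656, JUND at 16.6 ± 1.8, JUN at 10.3 ± 0.254, FOSL2 at 6.896 ± 0.281, FOS at 1.02 ± 0.0631 and FOSB at 0.198 ± 0.0991. FOSL1 was thus the most abundant AP-1 transcript per kb in WT cells with vehicle. In R820W cells with mepazine FOSL1 was at 24.2 ± 0.846 CPM per kb, below JUNB at 45.0 ± 0.76.

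The make-up of both families, measured per kb, shifted between groups. The FOSL1 share was lowest in R820W with mepazine, and the JUND share was highest in WT with mepazine. These shares were chosen after the values were seen and are given as a description. FOSL1 made up 92.5 ± 0.403% of the FOS-family level in KO, 65.9 ± 1.25% in R820W with mepazine, 86.3 ± 0.496% in R820W with vehicle, 84.7 ± 1.26% in WT with mepazine and 91.5 ± 0.356% in WT with vehicle. FOSL2 made up 6.4 ± 0.301% in KO, 28.6 ± 1.28% in R820W with mepazine, 11.4 ± 0.507% in R820W with vehicle, 13.2 ± 1.03% in WT with mepazine and 7.23 ± 0.379% in WT with vehicle. The level ratio of FOSL1 to FOSL2 was 14.5 ± 0.735 in KO, 2.31 ± 0.141 in R820W with mepazine, 7.56 ± 0.376 in R820W with vehicle, 6.46 ± 0.616 in WT with mepazine and 12.7 ± 0.722 in WT with vehicle. With coding length in place of exon length the FOSL1 share was lower in each group, at 42.9% in R820W with mepazine and 80.6% in WT with vehicle, as FOSL2 has 6794 exon bases of which 1056 are coding, and FOSL1 1840 of which 813 are coding. The ratio of FOSL1 to FOSL2 turned in R820W with mepazine, to 0.813 ± 0.0495 by coding length and 0.626 ± 0.0381 without length correction, so which of the 2 was more abundant there depends on the length used. In the other groups it stayed above 1, with coding-length ratios of 5.09 ± 0.257 in KO, 2.66 ± 0.132 in R820W with vehicle, 2.27 ± 0.216 in WT with mepazine and 4.46 ± 0.255 in WT with vehicle.

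The summed FOS-family level was 109 ± 4.94 CPM per kb in KO, 36.7 ± 1.07 in R820W with mepazine, 71.9 ± 0.629 in R820W with vehicle, 64.2 ± 2.15 in WT with mepazine and 95.4 ± 2.72 in WT with vehicle. The summed JUN-family level was 71.2 ± 3.05 CPM per kb in KO, 73.2 ± 1.53 in R820W with mepazine, 73.6 ± 2.45 in R820W with vehicle, 68.1 ± 3.43 in WT with mepazine and 67.8 ± 2.71 in WT with vehicle. Within the JUN family, JUN made up 17.5 ± 1.07% in KO, 9.11 ± 0.236% in R820W with mepazine, 12.6 ± 0.119% in R820W with vehicle, 12.6 ± 1.72% in WT with mepazine and 15.2 ± 0.552% in WT with vehicle. JUND made up 24.1 ± 0.435% in KO, 29.4 ± 0.811% in R820W with mepazine, 25.1 ± 0.535% in R820W with vehicle, 32.3 ± 0.61% in WT with mepazine and 24.5 ± 2.31% in WT with vehicle. JUNB made up 58.4 ± 1.32% in KO, 61.5 ± 0.615% in R820W with mepazine and 62.3 ± 0.49% in R820W with vehicle. In WT the JUNB share was 55.1 ± 1.7% with mepazine and 60.3 ± 2.62% with vehicle.

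**Figure D3:**
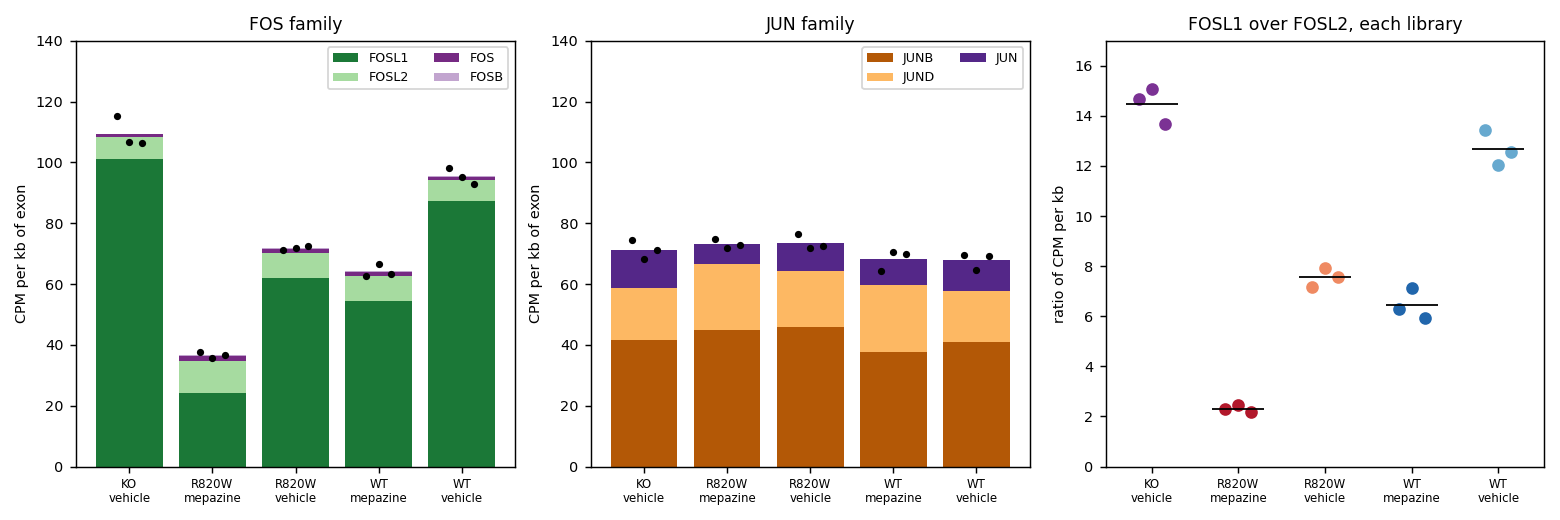
Left and middle, mean level in CPM per kb of exon (y axis) of each FOS-family and JUN-family gene, stacked by group (x axis), with the family sum of each library as a black point (n = 3 per group). Right, the ratio of FOSL1 to FOSL2 per kb in each library with the group mean as a line, from 2.31 in R820W with mepazine (0.813 by coding length, 0.626 without length correction) to 14.5 in KO.

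AP-1 works through further bZIP partners and sits below ERK, JNK and p38 kinases, and lists of these genes were counted over all genes tested. Of 12 bZIP partners 7 were tested. JDP2, which represses AP-1 as a dimer with JUN proteins, rose in R820W cells with vehicle against WT (0.36 ± 0.0662, adjusted p = 0.00023). It was the 1 of 7 called there, 14.3% of the list beside 19.2% of all genes tested. With mepazine in R820W cells 3 of 7 rose, among them ATF3, a stress-induced bZIP factor (0.44 ± 0.111, adjusted p = 0.00199), and 1 fell, MAFK, so that 57.1% of the list was called beside 46.8% of all genes tested. In WT cells with mepazine 2 of 7 rose, one of them ATF2, a JUN partner and JNK substrate (0.33 ± 0.0534, adjusted p = 4.35e-05), the other being MAFG, which is 28.6% of the list beside 24.0% of all genes tested. Of the EGR relatives and the EGR corepressors NAB1 and NAB2, 4 of 5 were tested. By edgeR 0 of 4 were called for R820W against WT with vehicle or for mepazine in either genotype (0 at an unadjusted p under 0.05, 0 by DESeq2), apart from 1 higher with mepazine in R820W cells without R820W_mepazine a. For KO against WT 0 of 4 were called (1 at an unadjusted p under 0.05, 0 by DESeq2). With both genotypes on mepazine 1 of 4 was called, 25% beside 44.9% of all genes tested. This was NAB2, lower in R820W (-0.17 ± 0.0587, adjusted p = 0.0222), a call lost in 4 of 6 fits with 1 library left out. For KO against R820W 50% were called beside 26.5%, with NAB2 higher (0.19, adjusted p = 0.0176) and NAB1 lower (-0.16, 0.0133). These calls were lost in 2 and 1 of 6 such fits.

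Of 22 kinases and serum response factor components, 22 were tested. In R820W cells 2 rose and 6 fell with mepazine, with MAP2K1, the MEK1 kinase that activates ERK, lower by 0.34 ± 0.0403 (adjusted p = 1.37e-07), and MAPK3, which encodes ERK1, higher by 0.36 ± 0.0771 (adjusted p = 0.00039). The number that rose was 1 without R820W_vehicle a or R820W_mepazine b, MAP3K1 being lost (0.14 to 0.22 over the 6 libraries left out). In WT cells 3 rose and 1 fell with mepazine, MAP2K1 being the 1 that fell (by 0.19 ± 0.0402, adjusted p = 0.000826). Without WT_vehicle a or WT_mepazine a the number that rose in WT cells was 1. In R820W against WT with vehicle 1 rose, MAP3K1 (0.24 ± 0.0635, adjusted p = 0.0064), and 1 fell, HRAS (-0.2 ± 0.0517, adjusted p = 0.00662), whose call was lost without WT_vehicle a or R820W_vehicle c (-0.25 to -0.15 over the 6 libraries left out). In these comparisons the shares called were below those of all genes tested. They were 36.4% beside 46.8% with mepazine in R820W cells, 18.2% beside 24.0% with mepazine in WT cells and 9.09% beside 19.2% for R820W against WT. They were not below for R820W against WT, both with mepazine (50% beside 44.9%), or for KO against R820W, both with vehicle (27.3% beside 26.5%).

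Of 13 genes that ERK induces, many of which feed back on it, 13 were tested. In R820W cells with mepazine 10 fell and 1 rose, 84.6% of the list beside 46.8% of all genes tested, with a median log2 fold change of -0.52 against 0.02 over all genes tested. DUSP6, the phosphatase of ERK, stood at 39.6 ± 0.945 CPM with mepazine and 56.7 ± 3.1 CPM with vehicle in R820W cells (fell by 0.52 ± 0.0523, adjusted p = 8.63e-09). SPRY4, a Sprouty inhibitor of RAS-ERK signalling, fell by 0.91 ± 0.179 (adjusted p = 0.000145) and ETV4, an ETS factor, by 0.697 ± 0.057 (adjusted p = 2.3e-10), while DUSP5, the nuclear ERK phosphatase, rose by 0.53 ± 0.0918 (adjusted p = 3.51e-05). In WT cells with mepazine 5 fell and 1 rose (46.2% called beside 24.0% of all genes, median -0.14 against 0.02), and 3 fell without WT_vehicle a or without WT_mepazine a. DUSP5, the riser, had a log2 fold change of 0.35 ± 0.0981 (adjusted p = 0.00988) and was not called without WT_vehicle a (0.29 to 0.39 over the libraries left out).

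In R820W cells with vehicle against WT, 7 of the 13 ERK-responsive genes fell and 0 rose by edgeR, 53.8% called beside 19.2% of all genes tested. Of the 13, 8 had an unadjusted p under 0.05 and 0 rose by DESeq2, with a median of -0.16 against 0.0009. DUSP6 was 56.7 ± 3.1 CPM in R820W and 81.2 ± 1.9 CPM in WT (fell by 0.52 ± 0.0499, adjusted p = 7.48e-09), and PHLDA1 fell by 0.58 ± 0.066 (adjusted p = 1.94e-06). In KO against WT 0 of the 13 were called by edgeR (4 at an unadjusted p under 0.05, 0 by DESeq2), with a median of 0.08 against 0.003. In that comparison 0.374% of all genes tested were called. In the interaction 4 of 13 were called lower, 30.8% beside 3.85% of all genes tested. Among them was DUSP6 (-0.34 ± 0.0717, adjusted p = 0.00954), whose call held with each library left out. The count fell to 2 without WT_mepazine a, WT_vehicle b or R820W_mepazine c, and to 1 without WT_mepazine b, R820W_vehicle b or WT_vehicle c.

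Among other immediate-early genes, 20 of 20 were tested. In R820W against WT with vehicle 2 rose and 5 fell, 35% of the list beside 19.2% of all genes tested. The differentiation factor KLF4 was higher (0.6998 ± 0.0989, adjusted p = 5.22e-06). MYC, ERRFI1 (an inhibitor of the EGF receptor) and CYR61 (a matricellular protein) were lower. The number that rose was 1 without WT_vehicle b, R820W_vehicle a or R820W_vehicle b. In KO against WT 2 of 20 rose, 10% of the list beside 0.374% of all genes tested. They were CTGF (1.48 ± 0.226, adjusted p = 0.000647), at 2.96 ± 0.255 CPM in KO and 1.06 ± 0.0926 CPM in WT, and CYR61 (0.26 ± 0.0529, adjusted p = 0.0157). The CYR61 call in KO was lost without WT_vehicle c, KO_vehicle b, WT_vehicle a or KO_vehicle a (0.23 to 0.33 over the libraries left out). With mepazine 6 fell and 2 rose in R820W cells, where 40% of the list was called beside 46.8% of all genes tested. In WT cells with mepazine 4 fell and 1 rose, 25% beside 24.0%, and the riser, KLF6, was not called without WT_vehicle a or WT_mepazine c (0.15 to 0.26 over the libraries left out). BTG2, an antiproliferative gene, rose by 0.74 ± 0.0719 in R820W cells with mepazine (adjusted p = 6.75e-09), and its interaction of 0.69 ± 0.106 was called (adjusted p = 0.000839).

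Genes listed as AP-1 targets, of which 19 of 25 were tested, did not move in one direction. In R820W cells with mepazine 11 fell and 6 rose (89.5% called beside 46.8% of all genes, median -0.26 against 0.02), and in WT cells with mepazine 12 fell and 3 rose (78.9% beside 24.0%, median -0.38 against 0.02). The EGF-receptor ligand AREG was 4.27 ± 0.565 CPM with mepazine and 12.6 ± 0.651 CPM with vehicle in R820W cells (fell by 1.57 ± 0.0974, adjusted p = 1.91e-12), and 8.48 ± 0.128 CPM with mepazine and 18.0 ± 1.35 CPM with vehicle in WT cells (fell by 1.09 ± 0.0855, adjusted p = 3.31e-10). KRT6A, a keratin of activated keratinocytes, was 219.5 ± 7.63 CPM with mepazine and 405 ± 5.1 CPM with vehicle in R820W cells (fell by 0.88 ± 0.0458, adjusted p = 5.99e-14). IVL, which encodes involucrin of the cornified envelope, was 31.96 ± 3.68 CPM with mepazine and 15.1 ± 0.134 CPM with vehicle in R820W cells (rose by 1.08 ± 0.0812, adjusted p = 5.23e-11).

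In R820W against WT with vehicle, 7 of the 19 AP-1 targets rose and 8 fell, 78.9% called beside 19.2% of all genes tested. IVL was 15.1 ± 0.134 CPM in R820W and 7.95 ± 0.846 CPM in WT (rose by 0.93 ± 0.0959, adjusted p = 2.78e-08). The collagenase gene MMP1 was 0.262 ± 0.2 CPM in R820W, from 19 counts over the 3 libraries, and 2.89 ± 0.381 CPM in WT (fell by 3.44 ± 0.34, adjusted p = 2.07e-08). The number that rose was 3 without WT_vehicle a or R820W_vehicle c, 4 without R820W_vehicle a and 2 without WT_vehicle b. In KO against WT 2 of 19 rose, 10.5% beside 0.374% of all genes tested. Among them was the protease gene PLAU (0.26 ± 0.0482, adjusted p = 0.00552). The PLAU call was lost without WT_vehicle a, KO_vehicle a or WT_vehicle b (0.24 to 0.31 with each library of both groups left out in turn). The number that rose was 1 without WT_vehicle a and 0 without KO_vehicle a or WT_vehicle b.

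**Figure D4:**
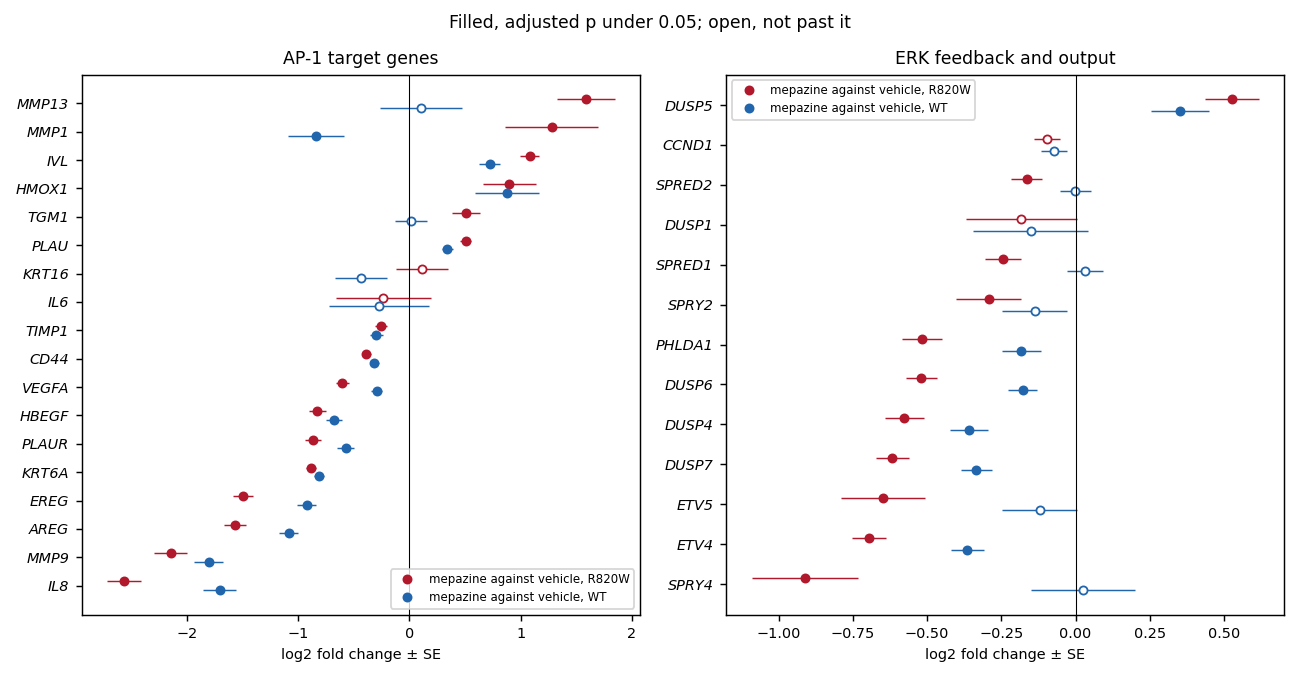
Log2 fold change with mepazine against vehicle (x axis, bars are SE) of AP-1 target genes (left, with 1 of the 19 tested not drawn) and genes of ERK feedback and output (right), in R820W cells (red) and WT cells (blue), n = 3 libraries per group. Filled points passed an adjusted p of 0.05, and 10 of 13 ERK genes lie below 0 and are filled in R820W cells.

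Across the 15 libraries the log2 CPM of FOSL1 went with that of IER3 (Pearson r = 0.96), JUN (0.937) and EGR1 (0.902) and against that of FOSL2 (-0.947). FOS went against FOSL1 (-0.861) and with FOSL2 (0.821), and JUNB with no member above 0.498. These coefficients are over libraries of 5 groups and include the differences between groups given above. Among 11941 genes of at least 2 CPM, those most like FOSL1 were SENP3-EIF4A1 (r = 0.994), CCDC86 (0.994) and TSR1 (0.993), the first a readthrough symbol that shares reads with its parts. Those most like IER3 were ODC1 (0.99), NAV3 (0.988) and ARL2BP (0.988), those most like JUN were AXL (0.977), FADD (0.962) and TOR1A (0.959), and those most like EGR1 were STK24 (0.978), MAPKAP1 (0.977) and STMN3 (0.967). Those most like FOSL2 were TRIM38 (0.985) and MDGA1 (0.984), and those most like JUND were NPC1 (0.94), ANKRA2 (0.915) and ORAI2 (0.911). Those most like FOS were LAPTM4A (0.952), CXCR7 (0.949) and SESN1 (0.936), and those most like JUNB were QSOX1 (0.922), KLK5 (0.91) and GPR137 (0.907). FOSB was nearest to DPY19L2P2 (0.869), TMEM143 (0.807) and CCDC23 (0.8003), and without the libraries of letter c these coefficients were 0.734, 0.629 and 0.344.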

How the data were processed

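The data are 15 HaCaT RNA-seq libraries, 3 in each of 5 groups as titled. The table that the authors deposited holds unnormalised read counts, with symbols in rows and libraries in columns. Libraries were made with a directional kit, per the labels' protocols. FastQC, MACS2, DESeq2 and the build hg19 are named per the submitters' processing notes, without roles or versions. For the aligner, counter, annotation and strand setting, the sources used here give nothing. FOSL2 and IER3 overlap antisense genes, and whether their counts include antisense reads is not known. The symbols FOSL2-AS1 and IER3-AS1 are not in the deposited counts. The series describes 3 independent experiments, but no label ties a letter to one, so p-values measure the spread between these libraries, which may in part be technical. Replicate pairs differed by more than counting error (chi-square per gene 3.31 to 14.8), and all 15 were kept.

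R 4.3.3 with edgeR 4.0.16 was used. Genes passing filterByExpr (minimum count 10) entered 1 robust quasi-likelihood fit of all 15 libraries with group as the only term and TMM scaling. The 7 comparisons, and 4 more for the order of groups, used two-sided tests, with a call at p under 0.05 after Benjamini-Hochberg adjustment across the 14971 genes tested. The SE is the absolute log2 fold change over the root of F. Alternatives were DESeq2 1.42.0, its size factors in edgeR, no filter, at least 1 CPM in 3 libraries, the groups compared alone, a block for the letter, and each library or letter left out.

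The members and gene lists were chosen with earlier results of these data known. Genes named are the 9 members, up to 3 per list, direction and comparison with the smallest adjusted p, and the 3 most correlated with each member. Some genes that the rule names are not reported here. SPRY4 was named outside that rule, after its values were seen. In bulk RNA, fewer cells expressing a gene and less RNA per cell cannot be told apart. Before TMM adjustment, melanocyte markers summed to 11.0 to 18.2 CPM and leukocyte markers to 4.3 to 7.16 CPM over the libraries.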

Additional observations from a re-analysis of the deposited data

Results flagged for a closer look

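The response of FOSL1 to mepazine differed between genotypes by the test of the interaction itself. The log2 fold change with mepazine against vehicle was -1.36 ± 0.0478 in R820W cells and -0.68 ± 0.0445 in WT cells (SE). The difference, R820W minus WT, was -0.6735 ± 0.0652 (edgeR, adjusted p = 1.46e-06), and it was the 1 of the 9 genes so marked. Groups of 3 libraries were too small for a search for single outlying libraries.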

How the results depend on the processing

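Over the 7 comparisons, the 9 genes gave 63 log2 fold changes. Of their 999 values under alternatives 942 kept their side of the threshold, 34 lost the call, 23 gained one and 0 of those called reversed. Direction was compared only where a fit called the gene, so uncalled values among the 942 could change sign. For FOSB in R820W against WT with vehicle they ran from -0.21 to 0.66 with libraries or letters left out. The number of members called in KO against WT, 1, was 2 with the replicate block, without the filter on low counts and with the groups compared alone, JUN being added, and 0 to 1 with libraries or letters left out. In the interaction, 1 member became 2 with the replicate block, with DESeq2 and without the filter, IER3 being added, and 1 to 2 with libraries or letters left out. In R820W against WT, 6 became 3 to 5 with libraries or letters left out, 3 being without letter a. Over all genes, KO against WT had 56 calls, 103 with the block and 12 to 35 in the leave-outs that moved it by over 1.5 times. The interaction had 577, with 1401 under the block, 894 without the filter and 70 to 1362 in leave-outs. Whole letters left out gave 1376 calls for R820W against WT, 1495 and 2290 for mepazine in WT and 2382 for KO against R820W. Without letter a, FOSL2 was not called in R820W against WT (0.21), nor EGR1 with mepazine in R820W cells (-0.14, and -0.13 without b). Without letter b, FOS was not called in R820W against WT with mepazine (0.34). Whichever of letters a, b and c was left out, FOSL1 was not called in KO against WT (0.198, 0.223 and 0.215). The same held for FOS (0.40, 0.33 and 0.49) and JUNB (0.19, 0.15 and 0.15) in R820W against WT with vehicle. JUN was not called with mepazine in WT without letter a (-0.24) or c (-0.16). The cause was not tested.

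The letters were not treated as pairs, as 5 of 30 same-letter correlations of deviations from group means were over 0.1 (-0.027 to 0.156). Yet 14 of 15 libraries correlated best with their own letter, a hint of variation shared by letter. The main fit does not model such variation, and the replicate block does. Besides JUN and IER3, the replicate block added JUNB for mepazine in WT (-0.13, adjusted p = 0.0451) and for KO against R820W (-0.14, 0.0248). DESeq2's size factors moved the median of all genes by at most 0.0135. Without length correction FOSL1 was 36.3% of the FOS family in R820W with mepazine and 75.9% in WT with vehicle. The length alternatives and those of the correlations were chosen after seeing the data. Of the alternatives for called list genes, 1710 kept the call and 180 lost it, and of those for list counts, 1166 stayed within 1.5 times and 166 did not. Depth limits FOSB (10 to 69 counts per library) and FOS (57 to 135).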
